A study of Mus musculus with 2 samples.

Results

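The 41 genes described here are the apoptosis machinery of mouse embryonic stem cells and the p53 family with its main regulators, measured as poly(A) RNA. They were chosen by symbol among the 15127 protein-coding genes of the count table: the BCL2 family, the numbered caspases, Apaf1, Cycs, Diablo, inhibitor-of-apoptosis (IAP) genes, Fas, Fadd, Cflar, and Trp53 with its relatives, regulators and 2 further genes of its pathway. The annotation holds 51 genes with these symbols, and 10 of them were not listed in the table. The series maps 3D genome structure and nascent RNA, and the poly(A) libraries measure mature transcripts.

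There were 2 libraries in 1 group. The cells were pSM44, a female line of mouse embryonic stem cells from an F1 of 129 × castaneous, which carries a tetracycline-inducible promoter at the endogenous Xist gene of its 129 allele. They were grown without serum in 2i/LIF medium and were given doxycycline at 2 μg/mL for 24 h, and both libraries share that treatment. A single line in a single condition was measured, so no value here is a response to doxycycline, to Xist or to the medium. The deposited counts were 1 column with 10017978 counts, and no label says whether it pools the libraries or holds 1 of them, so there was no replicate error and no test between conditions. All 7 embryonic stem cell markers were above CPM 100 (CPM is the count per 1000000 counts of the table), with Nanog at 901 and Pou5f1 at 709. The fibroblast genes Col3a1, Dcn and Lum and the blood gene Ptprc were not listed, while Col1a1 and Thy1 had 58 and 267 counts and the macrophage gene Cd68 had 301. In bulk RNA, fewer cells with a transcript and less of it per cell cannot be told apart.

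Apoptosis is run by caspases, proteases that lie dormant until an upstream signal cuts or assembles them. In the intrinsic (mitochondrial) route, BH3-only proteins sense damage or loss of survival signals and free the effectors Bax and Bak1, which open the outer mitochondrial membrane, and the released cytochrome c assembles with Apaf1 to activate caspase-9. In the extrinsic route, death receptors such as Fas recruit Fadd and caspase-8. Survival proteins of the BCL2 family hold the effectors and BH3-only proteins in check, and IAP proteins restrain caspases or death signalling. The transcription factor p53 switches on several of the death promoters, and Mdm2 and Mdm4 hold p53 down. Pluripotent mouse cells are known to die readily after DNA damage.

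Transcript levels of different genes are compared below per length, as CPM per kilobase (kb) of annotated exon. Each level has an exact Poisson 95% interval, which covers counting error only, because PCR copies were not told apart by molecular identifiers. Over the whole table the median level was 3.80 CPM per kb. The deposited table held few genes that lie under other genes. Among annotated genes with at least 90% of their exonic bases under genes of the opposite strand only, 10.4% of 888 were listed. Of genes with no such overlap on either strand, 67.4% of 14067 were listed. The absence of a covered member from the table therefore says nothing about its RNA, and overlaps above 10% of exonic bases are named with each member.

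Of the 51 annotated members, 35 were at CPM 1 or more, which took 11 counts, against 55.1% of all 21924 annotated protein-coding genes. That is 68.6% (exact Clopper-Pearson 95% interval 54.1 to 80.9). At CPM 10 or more there were 27 members (40.6% of all genes), and at CPM 100 or more 9 members (10.7% of all genes). The classes differed in how many annotated members were seen, but part of that gap lies in genes absent from the table. Of 22 annotated death promoters 20 were at CPM 1 or more, and of 14 survival genes 6 were. The table lacked 4 of these survival genes: Bcl2l2, Bcl2a1b, Bcl2a1c and Bcl2a1d. All but Bcl2a1c are mostly covered by other genes, and the Bcl2a1 genes are near-identical copies. The 2 missing death promoters, Bak1 and Diablo, are fully covered. Among listed genes, 20 of 20 death promoters and 6 of 10 survival genes passed, against 12086 of the 15044 listed genes matched to the annotation. Fas, Casp8 and Fadd passed with only 12 to 14 counts. At CPM 10 or more there were 15 of 20 death promoters and 5 of 10 survival genes, against 8891 of those 15044 genes. The highest members were the survival gene Mcl1 and Trp53, and Bax, Mdm2 and Cycs were also high. Together the 41 genes held 0.257% of the counts.

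**Figure D1:**
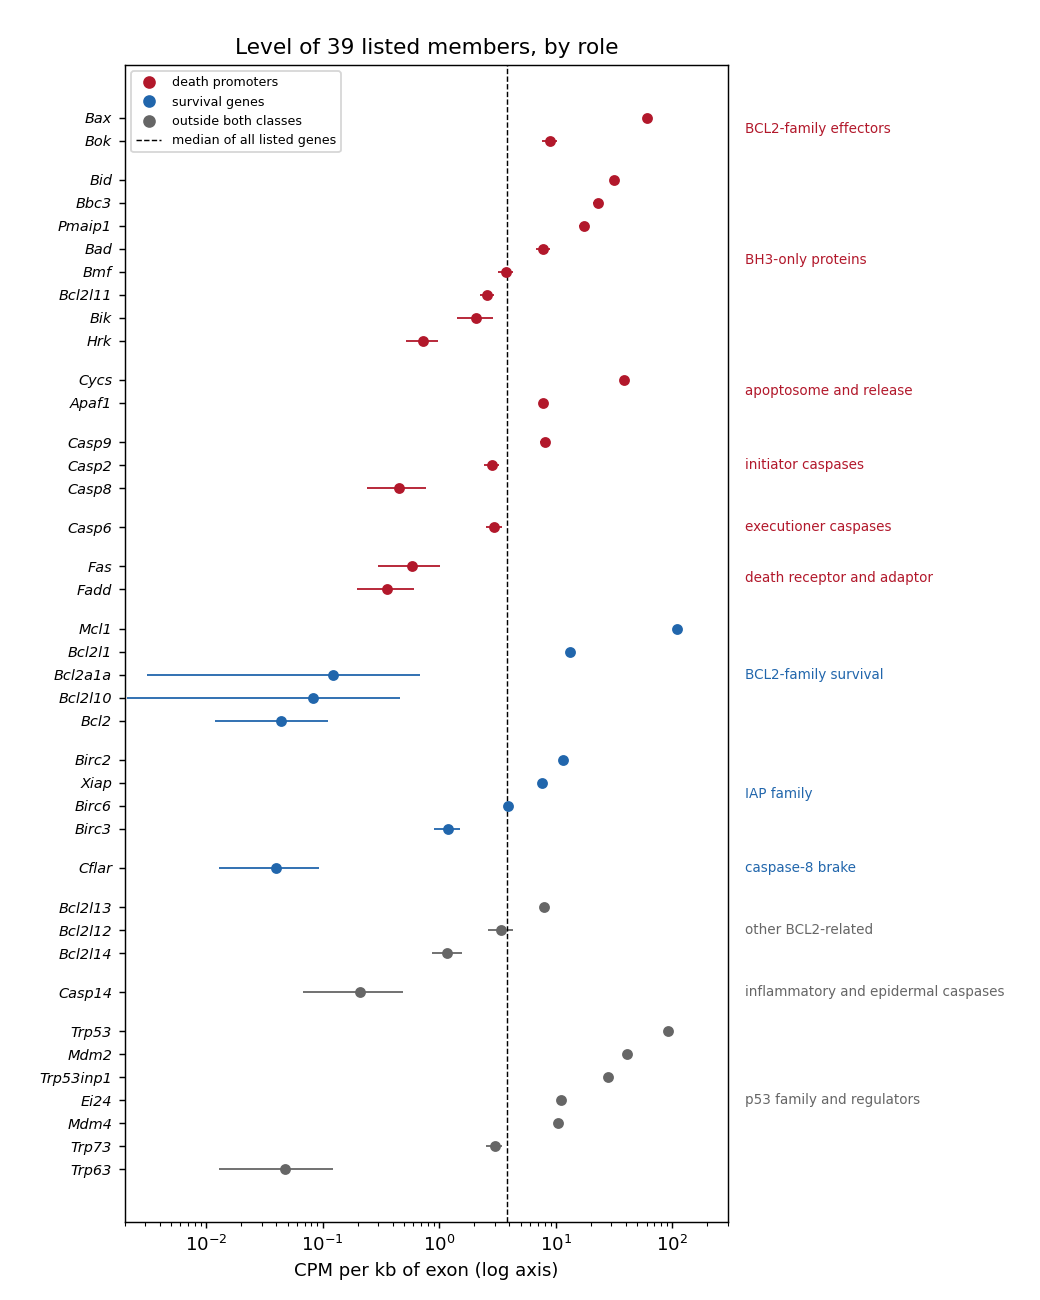
Level of 39 listed members as CPM per kb of exon on a log axis, grouped by role, with exact Poisson 95% intervals and a dashed line at the median of all listed genes (3.80). Mcl1 and Trp53 stand at the right, and Trp63, Bcl2 and Cflar lie at 0.0476 or less.

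Promoters of 4 members are given to set base composition near an annotated start beside the level. Each sequence is the RefSeq window on GRCm38.p6 from 250 bases before the annotated start to 50 after it, 5′ to 3′ on the gene's strand. Capitals mark CG dinucleotides, the hallmark of CpG islands, which read the same on either strand. Mcl1 and Bcl2 are shown because they were the highest and the lowest listed BCL2-family survival gene per kb of exon. At 4 counts for Bcl2 and 1 each for Bcl2l10 and Bcl2a1a, the order at the low end is not settled. Casp9 and Casp8 are shown because they start the intrinsic and the extrinsic caspase cascade. The windows are chr3:95658471-95658770 (plus strand) for Mcl1, chr1:106714241-106714540 (minus strand) for Bcl2, chr4:141793362-141793661 (plus strand) for Casp9 and chr1:58802252-58802551 (plus strand) for Casp8.
Mcl1: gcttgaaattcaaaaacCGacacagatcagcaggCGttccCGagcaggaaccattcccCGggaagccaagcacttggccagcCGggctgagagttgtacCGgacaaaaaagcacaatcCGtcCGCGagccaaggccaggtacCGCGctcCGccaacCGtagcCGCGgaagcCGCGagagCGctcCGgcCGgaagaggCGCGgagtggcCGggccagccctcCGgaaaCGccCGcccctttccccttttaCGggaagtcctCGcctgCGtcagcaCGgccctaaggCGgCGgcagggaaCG
Bcl2: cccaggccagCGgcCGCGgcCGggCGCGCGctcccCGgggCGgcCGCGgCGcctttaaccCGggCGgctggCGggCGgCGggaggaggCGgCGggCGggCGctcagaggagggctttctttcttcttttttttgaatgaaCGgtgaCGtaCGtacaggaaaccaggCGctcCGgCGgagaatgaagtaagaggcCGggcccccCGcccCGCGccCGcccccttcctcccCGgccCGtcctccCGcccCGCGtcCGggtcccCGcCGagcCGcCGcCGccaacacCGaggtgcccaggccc
Casp9: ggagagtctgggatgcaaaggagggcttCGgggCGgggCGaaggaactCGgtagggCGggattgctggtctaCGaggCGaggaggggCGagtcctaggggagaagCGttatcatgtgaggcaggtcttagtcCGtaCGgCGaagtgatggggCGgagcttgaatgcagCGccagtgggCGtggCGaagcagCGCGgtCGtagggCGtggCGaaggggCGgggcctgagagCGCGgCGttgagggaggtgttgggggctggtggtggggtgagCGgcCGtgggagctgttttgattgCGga
Casp8: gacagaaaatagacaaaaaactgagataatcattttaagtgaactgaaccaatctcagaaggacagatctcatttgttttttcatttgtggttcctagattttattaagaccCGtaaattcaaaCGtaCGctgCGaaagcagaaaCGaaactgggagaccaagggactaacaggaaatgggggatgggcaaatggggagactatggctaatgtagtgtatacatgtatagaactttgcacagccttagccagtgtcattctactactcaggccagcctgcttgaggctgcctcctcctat

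The Bcl2 window held 44 CG dinucleotides and the Mcl1 window 33, while Bcl2 had 4 counts and Mcl1 3714. The Casp9 window held 28 and the Casp8 window 5. These 2 windows are not alike in place: the Casp9 window is set on the start of the GENCODE gene, while the RefSeq start of the Casp8 window lies 7.13 kb inside it. Promoter windows were matched by symbol for 44 of the 51 annotated members, 8 of them with a start over 1 kb from that of the GENCODE gene, and where a gene had several windows the one with most CG was taken. Bik, Pmaip1, Bcl2l10, Trp53inp1 and Trp63 were among those with no match. Apaf1 had the most, with 46, and Bcl2l15 had none. The windows of Bax and Trp53 held 19 and 10. Among members at CPM 1 or more, 23 of 30 windows held 16 or more CG, which is above the median of 15 over all genes. That share of 76.7% is close to the 73.4% of all genes at CPM 1 or more. Among members below CPM 1 or not listed, the share was 2 of 14, or 14.3%, and the 2 were Bcl2 and Diablo. For members that were not listed it was 1 of 10, or 10%, and over all genes that were not listed 12.2%. Of death promoters with a window, 14 of 18 held 16 or more, and of survival genes 6 of 13. Across the 34 listed members with a window, Spearman's rho of CG count with CPM per kb was 0.32, and across 11721 listed genes it was 0.34. These are descriptions across genes of 1 column, which share library and depth.

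**Figure D2:**
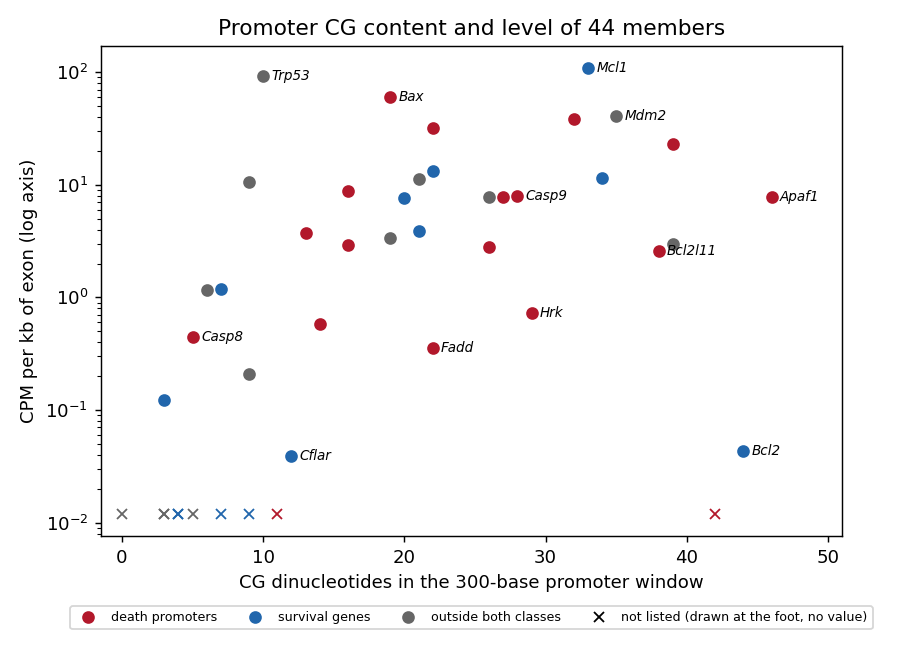
CG dinucleotides in the 300-base RefSeq promoter window (x axis) against CPM per kb of exon (y axis, log) for 44 annotated members, with crosses for members that were not listed. Bcl2 lies at the lower right with 44 CG and 0.0436 CPM per kb, and Trp53 at the upper left with 10 CG and 92.5 CPM per kb.

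Among the effectors, which form pores in the outer mitochondrial membrane, Bax was abundant. It had 947 counts, or 94.5 CPM, and a level of 60.0 CPM per kb (95% interval 56.2 to 63.9), above 94.0% of listed genes. Its exonic bases lay to 52.0% under Gm45808, a gene on the same strand. If all its counts came from the remaining exon, its level there would be 125 CPM per kb, which is an upper bound. Bok, a relative of Bax and Bak1 less bound by survival proteins, had 163 counts and 8.84 CPM per kb (7.54 to 10.3). Bak1 (chromosome 17, 27019810 to 27029009, GRCm38), which shares the work of Bax, was not listed. It lies wholly inside Ggnbp1, on the opposite strand, so its level is unknown and the ratio of Bax to Bak1 could not be formed.

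All 8 BH3-only genes were listed and at CPM 1 or more, and their levels ran over more than an order of magnitude. Bid, which caspase-8 can cut into an activator of Bax, led with 1125 counts and 31.6 CPM per kb (29.8 to 33.5). A stretch of 913 bases is shared by the 3′ ends of Bid and Bcl2l13 on opposite strands. The p53-induced activators Bbc3 (PUMA) and Pmaip1 (NOXA) followed with 490 and 477 counts. Their levels were 23.0 CPM per kb (21.03 to 25.2) and 17.4 CPM per kb (15.9 to 19.1). Bad, which responds to growth factor signalling and binds BCL2-type survival proteins, had 199 counts and 7.77 CPM per kb, with 22.9% of its exon under Gpr137. Bmf, tied to the cytoskeleton, had 195 counts and 3.71 CPM per kb, near the median of the whole table. Bcl2l11 (BIM), a broad-acting BH3-only protein, had 207 counts but a long exon union, and its level was 2.57 CPM per kb (2.23 to 2.95). Bbc3 thus stood 8.95 times above Bcl2l11 per kb (95% counting interval 7.59 to 10.6). Bik and Hrk were lowest, with 33 and 41 counts. Hrk, known mainly from neurons, was the 1 BH3-only gene under 1 CPM per kb, at 0.721 (0.517 to 0.978).

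Of the intrinsic caspase route, Cycs, Apaf1 and Casp9 were all above CPM 10. Cycs, the somatic cytochrome c gene, had 1301 counts and 38.2 CPM per kb, a value that is uncertain because the gene has many processed copies in the genome. Apaf1, the scaffold of the apoptosome, had 708 counts and 7.83 CPM per kb (7.26 to 8.43). Casp9, which the apoptosome activates, had 418 counts and 8.03 CPM per kb (7.28 to 8.84). The intervals of the 2 genes overlap per kb of exon union, but by median coding transcript length Casp9 was at 27.9 and Apaf1 at 13.7 CPM per kb. Of its exon, 19.5% lies under Ctrc on the opposite strand. Diablo (SMAC), which is released with cytochrome c and lifts the IAP block, was not listed. Its exons are fully covered by other genes, the largest part by Gm49027 (64.0%), so its level and its ratio to Xiap are unknown.

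Of the extrinsic route, Fas, Casp8 and Fadd had 12 to 14 counts each. Fas, the death receptor, had 12 counts, or 1.20 CPM. Casp8, the initiator that Fas recruits, had 13 counts, or 1.30 CPM, and Fadd, the adaptor between them, had 14 counts, or 1.40 CPM. These 3 genes were above the threshold of 11 counts by 3 counts or fewer. Their levels were 0.581 CPM per kb for Fas (0.300 to 1.01), 0.449 for Casp8 (0.239 to 0.767) and 0.358 for Fadd (0.196 to 0.601). The value for Fadd is uncertain, since 90.8% of its exon lies under the antisense gene Faddos. If all its counts came from the other 360 bases, its level there would be 3.88 CPM per kb, an upper bound. Fas and Casp8 had no such overlap. The ratio of Fas to Fadd was 1.62, with a counting interval of 0.686 to 3.78 that spans 1. It was 0.119 per kb of gene span, and with the covered exon of Fadd no order of these 2 genes can be given. Cflar (c-FLIP), the caspase-8 relative that brakes the receptor complex, had 5 counts and the lowest level of the listed members, 0.0394 CPM per kb (0.0128 to 0.0919). Cflar and Casp8 lie 36.5 kb apart on chromosome 1. Casp9 stood 17.9 times above Casp8 per kb (10.4 to 33.9), and 40.4 times with the median length of the coding transcripts in place of the exon union. Casp8 stood 11.4 times above Cflar (3.81 to 40.8), or 3.57 times with that length. The sum over Fas, Fadd and Casp8 was 39 counts, against 2427 over Apaf1, Cycs and Casp9. Per kb of exon the summed levels were 1.39 and 54.0 CPM per kb. Cycs, whose value is uncertain, made up 70.6% of the latter.

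Casp6, an executioner caspase gene, had 164 counts and 2.93 CPM per kb (2.50 to 3.42), below the median of the whole table. Casp2, an initiator that acts in the response to damage and extra centrosomes, had 199 counts and 2.81 CPM per kb (2.44 to 3.23), and the intervals of Casp6 and Casp2 overlap per kb of exon union. By median coding transcript length Casp6 was at 11.2 and Casp2 at 5.63 CPM per kb.

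On the survival side of the BCL2 family, Mcl1 carried most of what was measured. Mcl1, a short-lived protein that binds effectors and BH3-only proteins, had 3714 counts, or 371 CPM, and 108 CPM per kb (105 to 112), above 97.0% of listed genes. That was 89.0% of the summed level of the listed BCL2-family survival genes. Bcl2l1 (BCL-XL) was next with 606 counts and 13.2 CPM per kb (12.2 to 14.3). The ratio of Mcl1 to Bcl2l1 was 8.22 per kb of exon union (7.54 to 8.98) and 4.68 by median coding transcript length. Bcl2 itself had 4 counts and 0.0436 CPM per kb (0.0119 to 0.112), below all but 4.87% of listed genes, with 15.9% of its exon under D630008O14Rik. Bcl2l1 stood 303 times above Bcl2, with a counting interval of 118 to 1114. Bcl2l10 and Bcl2a1a had 1 count each. Bcl2a1a is 1 of 4 near-identical copies on chromosome 9, of which Bcl2a1b (79.2% of its exon under Gm29094), Bcl2a1c and Bcl2a1d (100% under Gm10634) were not listed, so reads could be split or lost between them. Bcl2l2 (BCL-W) was not listed. Its exons lie to 98.6% under Gm20521, a longer gene on the same strand, so its level is unknown and the share of Mcl1 holds for the listed genes only. Counts per gene also pool isoforms, and Bcl2l1 and Mcl1 are each known to give shorter isoforms that promote death.

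The IAP genes were all listed. Birc2 (cIAP1), a ubiquitin ligase of death receptor signalling, led per kb with 532 counts and 11.6 CPM per kb (10.6 to 12.6). Xiap, the direct inhibitor of caspases, had 726 counts and 7.65 CPM per kb (7.11 to 8.23), or 0.660 times the level of Birc2 (0.589 to 0.740). Birc6, a very large protein of the family, had 1006 counts, the most of the 4, but 3.90 CPM per kb, with 21.7% of its exon under Gm26749. Birc3 (cIAP2), which lies 11.6 kb from Birc2 on chromosome 9, had 59 counts and 1.18 CPM per kb (0.895 to 1.52). Birc2 and Birc3 are related in sequence, and how reads common to both were counted is not known.

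Set against each other as classes, death promoters and survival genes overlapped in level, but survival genes reached further at both ends. All 20 listed death promoters, from 0.358 (Fadd) to 60.0 CPM per kb (Bax), fell inside the range of the 10 listed survival genes, from 0.0394 (Cflar) to 108 CPM per kb (Mcl1). Mcl1 lay above every listed death promoter, and Cflar, Bcl2, Bcl2l10 and Bcl2a1a lay below every one. The median was 5.74 CPM per kb for death promoters and 2.54 for survival genes, a difference of 0.98 on the log2(CPM per kb + 1) scale. With each count moved to the end of its Poisson interval that widens or narrows the gap, the difference ran from 0.66 to 1.25. The direction was not the same in every setting. It was -0.14 with members whose exons lie to at most 10% under other genes. With members at CPM 1 or more only it was -0.70, but that filter acts on the values being compared. All 20 listed death promoters passed it and 6 of the 10 listed survival genes did, so only the survival median rose. Without Bcl2 the difference was 0.39, without Xiap 1.56, and as CPM with no length 0.11. The summed level was 267 CPM per kb for death promoters and 146 for survival genes, a ratio of 1.82 that was 0.936 per kb of whole gene span. Mcl1 alone made up 74.2% of the survival sum, while Bax, the highest death promoter, made up 22.5% of the death promoters' sum. Under 1 CPM per kb were 4 of the 20 listed death promoters (Fadd, Casp8, Fas and Hrk) and 4 of the 10 listed survival genes (Cflar, Bcl2, Bcl2l10 and Bcl2a1a).

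Within the BCL2 family alone, the median was 8.30 CPM per kb for the 10 listed death promoters and 0.122 for the 5 listed survival genes. The difference was 3.05 on the log2(CPM per kb + 1) scale, with counting bounds of 2.27 to 3.39. It rests on Bcl2, Bcl2l10 and Bcl2a1a, which together had 6 counts, and was -2.09 among members at CPM 1 or more, where the survival side is Mcl1 and Bcl2l1 only. Without Bcl2 it was 1.22, without the Bcl2a1 copies 1.25, and with members nearly free of overlap 0.24. The summed levels were 158 CPM per kb for death promoters and 122 for survival genes, a ratio of 1.29 that depended on the length used. The ratio was 1.81 by median and 1.64 by longest coding transcript, and 1.90 over exon outside other genes. As plain CPM, with no length, the sum was 0.896 times as large for death promoters as for survival genes, and per kb of gene span 0.465 times. Mcl1 was above every listed death promoter of the family per kb of exon, by median and by longest coding transcript length and as CPM. The upper bound for Bax, with all its counts placed on exon outside other genes, was 125 CPM per kb, against 108 for Mcl1.

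**Figure D3:**
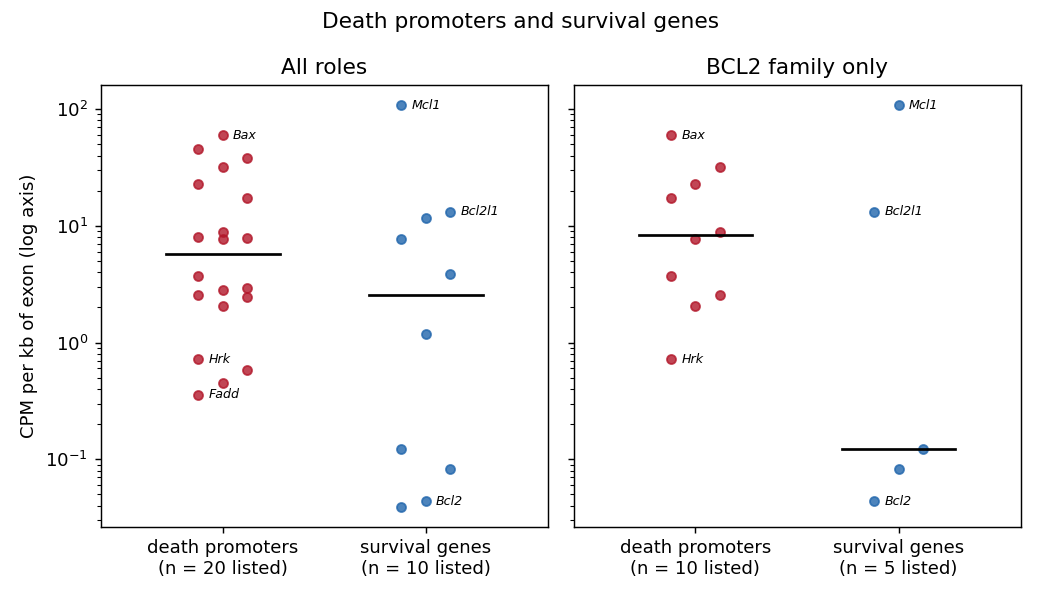
CPM per kb of exon (log axis) of listed death promoters, at the left of each panel, and listed survival genes, for all roles and for the BCL2 family only, with a bar at each median. Death promoters form a continuous spread, while the BCL2-family survival genes split into Mcl1 and Bcl2l1 above and 3 genes at 0.122 or less.

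The p53 genes were among the most abundant members. Trp53 (chromosome 11, 69580359 to 69591873), free of overlap with other genes in exon sequence, had 3749 counts, the most of any member, and 92.5 CPM per kb (89.6 to 95.5). Its level exceeded 96.3% of listed genes, and by the longest coding transcript it ranked first among members, ahead of Mcl1. Mdm2, the ubiquitin ligase that destroys p53 and is itself a p53 target, had 2097 counts and 41.2 CPM per kb (39.4 to 43.0). Mdm4, a relative of Mdm2 that blocks transcription by p53, had 1556 counts and 10.5 CPM per kb (9.98 to 11.0). Trp53 stood 2.25 times above Mdm2 (2.13 to 2.37). Mdm2 stood 3.92 times above Mdm4 (3.67 to 4.19), or 1.51 times by median coding transcript length. The p53-induced genes Trp53inp1, which promotes death and autophagy, and Ei24, which encodes a membrane protein of the endoplasmic reticulum, had 1804 and 545 counts, or 27.8 and 11.2 CPM per kb. Of the exon of Ei24, 29.7% lies under Gm26787. The relatives of p53 were below the median of the whole table. Trp73, known from neural and ciliated tissues, had 165 counts and 2.98 CPM per kb. Trp63, a regulator of stratified epithelia, had 4 counts and 0.0476 CPM per kb. Of the epidermal keratin genes, Krt5 had 3 counts, and Krt14 and Krt1 were not listed.

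**Figure D4:**
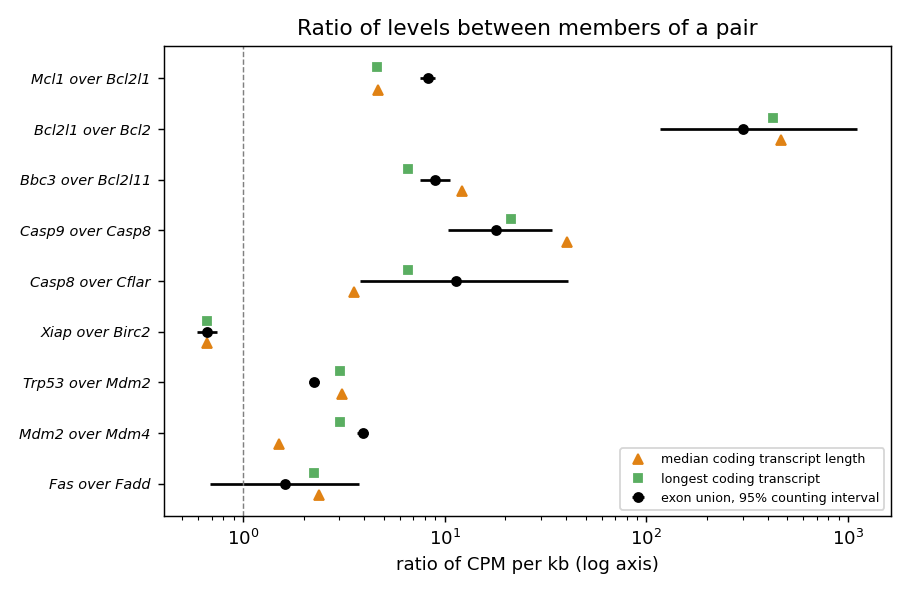
Ratio of CPM per kb (log axis) between members of 9 pairs, with exact conditional binomial 95% counting intervals and the same ratio by median and by longest coding transcript length. Bcl2l1 over Bcl2 is the highest at 303, Xiap over Birc2 lies below 1, and the interval of Fas over Fadd spans 1.

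The other members lay outside both classes. Bcl2l13, a protein of the outer mitochondrial membrane, had 714 counts and 7.84 CPM per kb. Bcl2l12 had 67 counts and 3.38 CPM per kb, with 64.5% of its exon under opposite-strand genes, mainly Gm15545. Bcl2l14 had 48 counts and 1.17 CPM per kb, with 36.9% of its exon under opposite-strand genes. If all its counts came from the rest, its level there would be 1.85 CPM per kb, an upper bound. Bcl2l15, with 30.7% of its exon under Gm43064, was not listed. The inflammatory caspase genes Casp1 and Casp4, which cut gasdermin D and cytokine precursors, and Casp12 beside them on chromosome 9, were not listed, and none of the 3 had exonic overlap with another gene. Casp14, which acts in the cornifying epidermis, had 5 counts and 0.208 CPM per kb.

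Further genes of these pathways were taken as lists, to be read beside the 55.1% of all annotated genes at CPM 1 or more and the median of 6.34 CPM per kb over those genes. All 21 targets of p53 outside the members reached CPM 1, with a median of 10.4 CPM per kb. Cdkn1a, the cell cycle inhibitor p21, led with 4501 counts and 126 CPM per kb, followed by Ccng1 at 86.0 and Phlda3 at 81.4, and Dram1 was lowest with 13 counts. All 18 p53 modifiers reached CPM 1, and they had a median of 10.6 CPM per kb. Cdkn2a, whose ARF product inhibits Mdm2 and whose other product inhibits cyclin-dependent kinases, led at 99.3, then the deubiquitinase gene Usp7 at 69.0 and Aurka at 65.8, and Hipk2 was lowest at 2.01. Genes of mitochondrial death and the outer membrane had a median of 30.5 CPM per kb, all 10 of them at CPM 1 or more. Vdac1, the main outer membrane channel, led them with 282 CPM per kb, then Vdac2 with 73.2 and the fission gene Dnm1l with 47.7, and Bnip3 was lowest at 4.45.

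Of the death receptor pathway, 8 of 12 genes (66.7%) were at CPM 1 or more. The 4 others were 3 ligand genes and the receptor gene Tnfrsf25, which had 8 counts. Fasl had 1 count, and Tnf and Tnfsf10 (TRAIL) were not listed. Faf1 led at 38.4 CPM per kb, then the receptor gene Tnfrsf21 at 18.7 and the adaptor gene Tradd at 15.2, while Ripk1 was the lowest detected at 1.36. The TRAIL receptor gene Tnfrsf10b, itself a p53 target, had 680 counts and 12.5 CPM per kb, against 12 counts and 0.581 CPM per kb for Fas. All 6 caspase substrates and partners reached CPM 1, with Parp1 at 144 CPM per kb, Casp8ap2 at 10.02 and Rock1 at 6.74, and Dffa, the inhibitor of the caspase-activated nuclease, lowest at 3.55. Among other IAP genes, Birc5 (survivin), which acts in cell division, had 865 counts and 25.4 CPM per kb, Birc7 had 44 counts and Naip1 had 7. Naip2, Naip5 and Naip6, which are related in sequence, were not listed. Of 11 genes of lytic death 7 (63.6%) were at CPM 1 or more, a share near that of all genes, as is that of the death receptor list. Ripk3, the kinase of necroptosis, led at 21.4 CPM per kb, then Aim2 at 11.7 and the gasdermin gene Gsdmd at 11.5. Mlkl, the pore-forming partner of Ripk3, had 1 count, and Nlrc4 was the lowest detected gene with 12 counts.

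**Figure D5:**
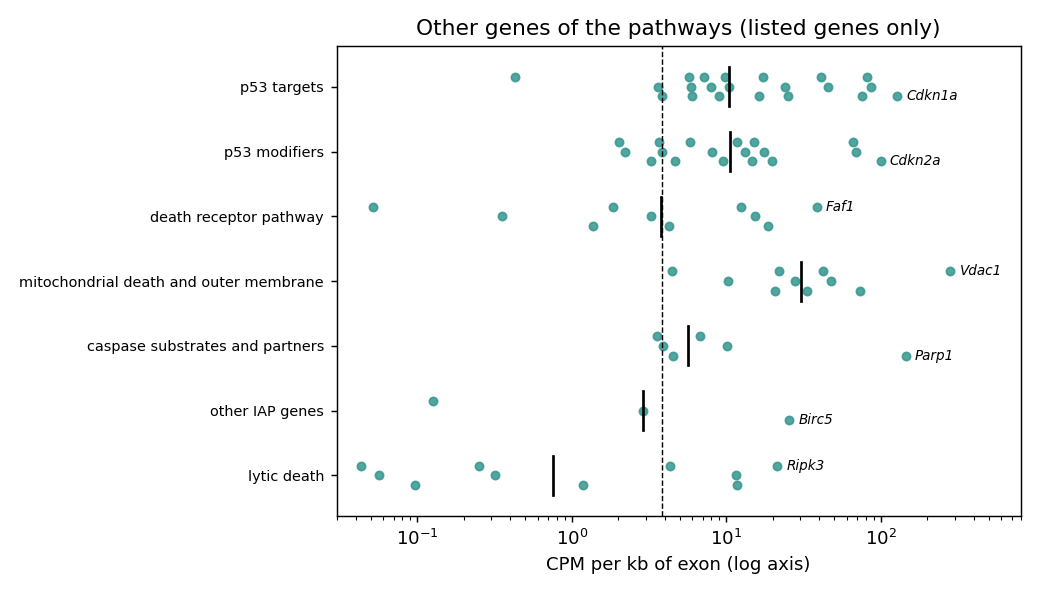
CPM per kb of exon (log axis) of the listed genes in 7 pathway lists, with a bar at each list's median and a dashed line at the median of all listed genes (3.80). The p53 and mitochondrial lists lie mostly to the right of the dashed line, and the lytic death list spreads from 0.0433 to 21.4.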

How the data were processed

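The 2 poly(A) libraries form 1 group. The submitters' processing notes name the GRCm38.p6 build, Trimmomatic 0.38, HISAT2, SAMtools, featureCounts and Subread 1.6.4, with no annotation release, strand setting, counted feature or pooling. The deposited values are raw counts by the authors in 1 column, whole numbers from 1 to 117610 for 15127 genes with a total of 10017978.

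Counts were scaled to CPM and divided by the exon union of GENCODE M21 (GRCm38), matched by symbol for 14896 genes and by RefSeq synonym for 148 more. Symbols without a match (83) made up 0.163% of counts. Detection meant CPM 1 or more. Class medians used log2(CPM per kb + 1). Ratios had exact conditional binomial 95% intervals. Promoter windows came from RefSeq. The functions were tested on simulated counts. The rule names every gene that matches the symbols, some of which are not reported here though they count in class values, and in pathway lists the 3 highest and the lowest detected gene; further list genes (Tnfrsf10b, Tnfrsf25, Mlkl, Fasl, Tnf, Tnfsf10, Birc7, Naip genes) were named after their values were seen. The members, classes and lists were chosen with earlier results of these data known. Of 15 planned ratios 11 could be formed and 9 are given, and agreement between libraries could not be computed from 1 column. Scripts ran in Python 3.11.15 with pandas 2.3.3, scipy 1.17.1, matplotlib 3.10.9 and numpy 2.4.6.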

Additional observations from a re-analysis of the deposited data

How the results depend on the processing

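The count of detected members, 35, was 35 at CPM 0.5, 29 at CPM 5 and 35 at 10 counts or more. The difference between the medians of death promoters and survival genes, 0.98 on the log2 scale, was 1.28 with a pseudocount of 0.1, 1.31 by longest coding transcript, 0.66 by gene span, 0.11 as CPM without length and 1.97 with unlisted members at 0. It was -0.70 at CPM 1 or more, a filter that took out listed survival genes only, and -0.14 with at most 0.1 overlap. Both settings leave fewer genes. Leaving out 1 member gave 0.39 (Bcl2) to 1.56 (Xiap), without Cycs it was 0.53, and without the Bcl2a1 copies 0.39. Within the BCL2 family the difference of 3.05 became 5.24 with a pseudocount of 0.1, 4.19 by median and 3.53 by longest coding transcript, 1.44 by span, 3.93 as CPM, -2.09 at CPM 1 or more and 0.24 with at most 0.1 overlap. Without Bcl2 it was 1.22, and without the Bcl2a1 copies 1.25. The ratio of summed levels, 1.82, was 2.32 by median and 2.16 by longest coding transcript, 0.936 by span, 1.25 as CPM and 2.35 over exon outside other genes. Within the BCL2 family the ratio of 1.29 was 1.81, 1.64, 0.465, 0.896 and 1.90 under the same settings in that order. Fas over Fadd was 0.119 by span. Ratios of sums, exon outside other genes and removal of the Bcl2a1 copies were chosen after seeing the data. Levels over exon outside other genes place all counts of a gene on that exon and are upper bounds. No paired analysis was possible because there is 1 group in 1 column, and no library could be left out for the same reason. At 1 to 5 counts (Bcl2, Cflar, Trp63, Casp14, Bcl2l10, Bcl2a1a) depth limits any order of levels.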
